A study of Mus musculus with 8 samples.

Results

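The cholesterol and fatty acid synthesis genes described here are 28 mouse genes chosen by name and function, out of 20144 genes with a named probe on the arrays. They comprise 18 enzymes of cholesterol synthesis, 7 enzymes of fatty acid synthesis and 3 regulators of both pathways. Each of the 28 had a probe that was well above background on all 8 arrays, so the filter on dim probes removed none of them. Probes were matched through the accession that the scanner files give for each probe.

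The study measured mRNA on 8 single-color (Cy3) microarrays, with 1 array for each group. The 5 developmental groups were cells sorted from dissociated mouse livers, of fetuses from the youngest stage, E11.5, through E13.5 and E14.5 to E17.5 (E for embryonic day), and of newborns on postnatal day 1 (P1). These cells carried p75NTR, the neurotrophin receptor encoded by Ngfr, and lacked the leukocyte marker CD45 and the erythroid marker Ter119. The adult group consisted of hepatic stellate cells (adult HSC), the vitamin A-storing mesenchymal cells of the liver, sorted from adult liver as vitamin A-positive. The comparison groups were MEF, fibroblasts grown in culture from embryonic skin, and MSC, purified mesenchymal stem cells of adult bone marrow. No genotype or treatment distinguishes the groups in the labels, and strain, sex and the number of animals behind each array are not given in the sources used here. With 1 array per group, a difference between any pair of groups has no replicate check. In these sorted populations, fewer cells of a type and less RNA per cell cannot be told apart.

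Values are log2 levels of processed signal relative to the 75th percentile of the same array, so that a level of 0 is that percentile and a difference of 1 is 2-fold. Between 58.8% and 64.5% of spots were well above background on each array. The spike-in slope was 0.849 on the E11.5 array and between 0.922 and 0.933 on the others. All 10 stellate cell markers, among them Ngfr itself and the collectin genes Colec10 and Colec11, were above background on each of the 6 liver-derived arrays, against 7 on the MEF array and 4 on the MSC array. The 4 fetal arrays shared a slide, and P1, adult HSC, MEF and MSC shared the other.

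Cells make cholesterol from acetyl-CoA through mevalonate, farnesyl diphosphate, squalene and lanosterol, and make fatty acids from the same precursor through malonyl-CoA. Both pathways are controlled by the SREBP transcription factors. SREBP precursors sit in the endoplasmic reticulum with the escort protein SCAP; when sterols are plentiful, INSIG proteins hold the complex there, and when sterols are scarce it moves to the Golgi, where proteases release the active factor. SREBP-2, from Srebf2, acts mainly on cholesterol genes, and SREBP-1c, from Srebf1, mainly on fatty acid genes. Known SREBP target promoters carry sterol response elements near sites for the cofactors NF-Y, which binds CCAAT, and Sp1.

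Because 21 of the 28 genes were at least 2-fold lower together on the E17.5 array than on the E14.5 array, as described below, promoter windows of the members were examined. Windows from 250 bases before to 50 bases after the annotated start came from RefSeq (GRCm38.p6), where 23 of the 28 members had an entry. The sequences of Hmgcs1 (chr13:119690101-119690400, plus strand), Idi1 (chr13:8885356-8885655, plus strand) and Msmo1 (chr8:64733529-64733828, minus strand) are shown as examples of genes with a wide E17.5 to E14.5 difference. They were not picked by rank: Sc5d, Tm7sf2 and Lss had windows and wider differences than Idi1 (-2.92) and Hmgcs1 (-2.82), but are not shown. Me1 (chr9:86695865-86696164, minus strand) is shown because it differed in the opposite direction. The 4 windows shown were picked after the values were seen. Each reads 5′ to 3′ along its gene, and capitals mark CCAAT, read on either strand, and, in Hmgcs1, also TCACCCCAC.
Hmgcs1: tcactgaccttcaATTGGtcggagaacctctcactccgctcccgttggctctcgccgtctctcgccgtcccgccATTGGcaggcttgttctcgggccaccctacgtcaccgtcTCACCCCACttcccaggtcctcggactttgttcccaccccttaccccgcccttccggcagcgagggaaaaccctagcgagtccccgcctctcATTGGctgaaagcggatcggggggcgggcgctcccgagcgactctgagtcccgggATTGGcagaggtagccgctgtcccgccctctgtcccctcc
Idi1: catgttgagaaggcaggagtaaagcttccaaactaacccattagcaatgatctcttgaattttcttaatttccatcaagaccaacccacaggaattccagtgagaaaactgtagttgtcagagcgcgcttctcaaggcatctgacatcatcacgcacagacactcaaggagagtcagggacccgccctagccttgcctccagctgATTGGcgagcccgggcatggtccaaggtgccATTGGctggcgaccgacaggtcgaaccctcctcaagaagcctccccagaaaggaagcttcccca
Msmo1: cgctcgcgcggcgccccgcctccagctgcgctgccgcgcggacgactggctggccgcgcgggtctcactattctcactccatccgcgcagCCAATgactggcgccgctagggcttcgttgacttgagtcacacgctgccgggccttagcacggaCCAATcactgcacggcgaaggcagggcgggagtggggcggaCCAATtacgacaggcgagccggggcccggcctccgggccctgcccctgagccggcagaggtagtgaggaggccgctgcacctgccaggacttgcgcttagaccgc
Me1: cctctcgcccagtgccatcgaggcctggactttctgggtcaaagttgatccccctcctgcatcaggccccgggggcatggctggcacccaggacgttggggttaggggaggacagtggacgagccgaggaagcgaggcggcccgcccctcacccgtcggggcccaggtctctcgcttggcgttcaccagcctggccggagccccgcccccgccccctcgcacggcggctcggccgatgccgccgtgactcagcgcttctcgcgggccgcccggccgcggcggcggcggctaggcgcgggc
The Hmgcs1 window held CCAAT on the reverse strand 237, 176 and 45 bases before the start, and once more just after it. The Idi1 matches lay 45 and 14 bases before the start, and the Msmo1 matches 160, 96 and 55 bases before it. The Me1 window shown held none, although another annotated Me1 window did.

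Over the members, 20 of 23 had CCAAT in at least 1 window, against 42.4% of the 13064 measured genes with a window. Counted by window, 21 of 29 member windows held it, against 37.4% of all 32851 windows. The 3 members without it were Acaca, Acat2 and Elovl6. GGGCGG, the core of an Sp1 site, occurred in 19 of 23 members, against 60.6% of measured genes. CACGTG, an E-box that SREBP-1 and many other factors can bind, occurred in 4 members (Dhcr7, Hsd17b7, Insig1 and Sc5d), against 10.6%. TCACNCCAC, a sterol response element consensus, occurred in Hmgcs1 alone, against 1.45%. All motifs were searched on both strands, and none of the 4 contains another. These counts describe letters in fixed windows, several genes have more than 1 window, and no binding was measured.

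Between successive stages, the widest median difference of the module lay between E17.5 and E14.5, a pair of arrays on the same slide. On the E17.5 array, all 18 cholesterol synthesis genes were at least 2-fold lower than on the E14.5 array, with a median difference of -2.62 on the log2 scale and a range from -3.28 to -1.38. Over the 28 members, 21 were at least 2-fold lower, against 8.75% of the 14503 genes compared, and 1 was at least 2-fold higher, against 8.82%. The median difference was -2.09 over the members and -0.01 over all genes. This pair was singled out after the values were seen, and it has no test.

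**Figure D1:**
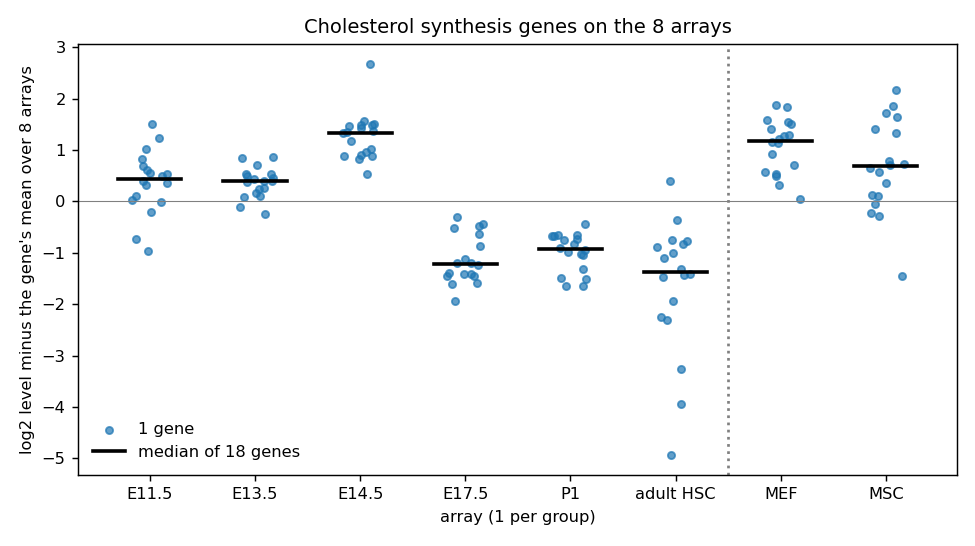
Log2 level of each of the 18 cholesterol synthesis genes minus that gene's own mean over the 8 arrays (y axis), on each array (x axis); points are genes, black bars are medians, and the dotted line separates liver-derived arrays from MEF and MSC. All 18 genes sit above their own mean at E14.5 and below it at E17.5 and P1.

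Enzymes of the mevalonate segment, which turns acetyl-CoA into isoprenoid units, had their liver maximum at E14.5 without exception. Hmgcs1, the cytosolic HMG-CoA synthase, stood at 4.12, 4.13, 5.02, 2.21 and 2.60 over the 5 stages in order, at 2.11 in adult HSC, and at 4.99 in MEF and 3.54 in MSC. Its level was thus 7.05-fold lower at E17.5 than at E14.5, and the P1 and adult HSC arrays stayed near the E17.5 value. Idi1, which isomerizes isopentenyl diphosphate, ran 1.82, 1.66, 2.71, -0.21 and -0.30 over the same stages, with -0.73 in adult HSC, 2.72 in MEF and 2.01 in MSC. For Fdps, farnesyl diphosphate synthase, the stages gave 3.60, 3.49, 4.66, 1.90 and 1.79, adult HSC 0.84, MEF 4.64 and MSC 3.83. Both genes were high on the same 5 arrays, E11.5 to E14.5, MEF and MSC, and low on the other 3.

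Acat2, which joins acetyl-CoA units, was 3.61-fold lower at E17.5 than at E14.5, with levels of -2.62 and -0.77. The mevalonate kinase gene Mvk was at 2.35 at E17.5 and 3.82 at E14.5, and the phosphomevalonate kinase gene Pmvk at 2.52 and 3.89. These kinases differed least within the segment, by -1.46 and -1.38. Mvd, the decarboxylase that follows them, was at -0.74 at E17.5 and 1.08 at E14.5, a difference of -1.83.

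The squalene steps, which commit farnesyl diphosphate to sterols, showed the same step and a further one in the adult cells. Fdft1, squalene synthase, stood at 0.55, -0.07, 0.72, -1.90 and -1.41 from E11.5 to P1, at -4.41 in adult HSC, and at 1.12 in MEF and 1.71 in MSC. Sqle, squalene epoxidase, a rate-controlling enzyme of the pathway, stood at 3.47, 2.65, 3.32, 0.54 and 1.21, at -2.98 in adult HSC, and at 3.82 in MEF and 3.59 in MSC. Every liver-derived array was below both MEF and MSC for these 2 genes. Lss, lanosterol synthase, ran -1.65, -1.29, -0.18, -3.13 and -3.17, with -3.10 in adult HSC, -0.53 in MEF and -0.35 in MSC. Unlike Sqle, Lss was nearly level over E17.5, P1 and adult HSC. A second Fdft1 probe, above background on only 2 arrays, was higher by 0.81 at E17.5 than at E14.5, so the Fdft1 values rest on its brighter probe.

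Downstream of lanosterol, Msmo1, a methylsterol oxidase, had the widest E17.5 to E14.5 difference of all members, -3.28 or 9.75-fold lower at E17.5. Its levels were 2.89, 2.66, 3.85, 0.57 and 0.85 over the stages, 1.09 in adult HSC, 3.77 in MEF and 4.35 in MSC. The sterol desaturase gene Sc5d was 8.34-fold lower at E17.5 than at E14.5, with -0.33, 0.63, 1.86, -1.20 and -1.26 over the stages, 0.04 in adult HSC, 1.60 in MEF and 1.81 in MSC. For the sterol reductase gene Tm7sf2 the stages gave 0.36, 1.44, 3.25, 0.26 and -0.34, adult HSC -0.43, MEF 0.90 and MSC -0.89. Tm7sf2 was therefore highest at E14.5, above MEF and MSC, and its E17.5 level was close to that at E11.5.

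Cyp51, lanosterol demethylase, stood at -0.31, -0.71, -0.65, -2.79 and -2.58 over the stages, with -4.81 in adult HSC, 0.28 in MEF and -0.85 in MSC. Ebp, a sterol isomerase, stood at 2.31, 3.02, 4.29, 2.82 and 2.61, at 3.67 in adult HSC, 3.79 in MEF and 3.63 in MSC. Ebp was the only cholesterol gene with its lowest level at E11.5. Among the remaining late enzymes, Nsdhl was at -2.95 at E17.5 and -0.87 at E14.5, and Hsd17b7 at -3.09 and -0.97. Dhcr7, a reductase that completes cholesterol, was at -2.07 at E17.5 and 0.54 at E14.5, a 6.11-fold difference.

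The choice of E14.5 as the earlier stage matters to the size of the step. Set against E13.5 in its place, E17.5 was at least 2-fold lower in 18 of the 28 members (10.9% of all genes) and higher in 1 (12%), with 14 of the 18 cholesterol genes among the lower ones. Set against E11.5, it was lower in 17 (14.6%) and higher in 1 (15.6%), with 13 cholesterol genes, and Ebp turned to 0.51. The single higher member was Me1 in each case.

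Before that step, E14.5 was above E13.5 for all 18 cholesterol genes, by a median of 0.98, and for 6552 of 14541 genes. At least 2-fold higher were 9 members (9.38% of all genes), namely Acat2, Idi1, Fdps, Lss, Tm7sf2, Msmo1, Ebp, Sc5d and Scd1, and none was 2-fold lower (6.37%). With a normexp background correction that left out spots of uneven background, this count was 5. Between E13.5 and E11.5 the module differed little, with Tm7sf2 alone 2-fold higher (7.82%) and Insig1 alone 2-fold lower (7.05%). Across birth, P1 against E17.5, no member was 2-fold higher (12.2%) and only Srebf1 was 2-fold lower (4.74%).

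**Figure D2:**
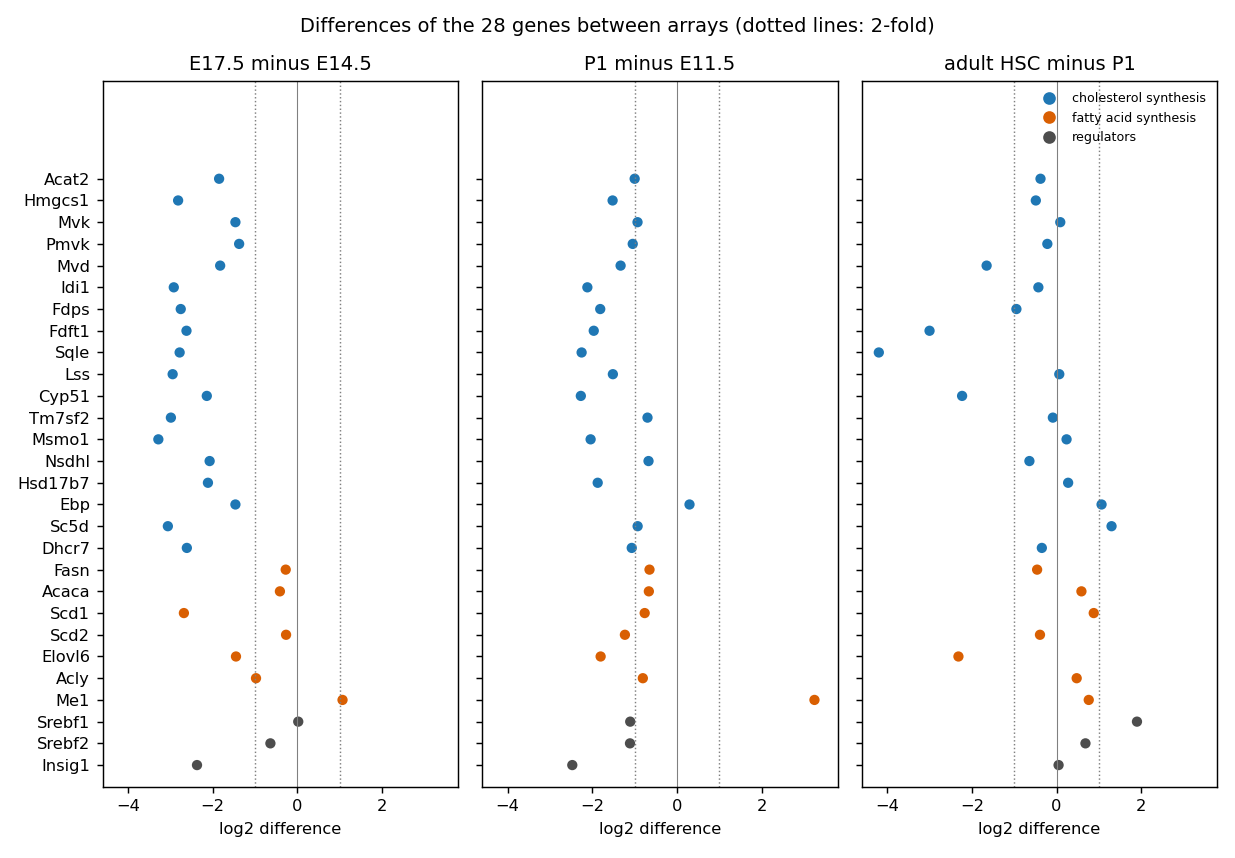
Log2 difference (x axis) of each of the 28 genes (y axis) for E17.5 minus E14.5, P1 minus E11.5 and adult HSC minus P1; dotted lines mark 2-fold, and color marks the gene group. On the left all 18 cholesterol genes lie beyond 2-fold lower, while Fasn, Acaca, Scd2, Acly, Srebf1 and Srebf2 lie within 2-fold and Me1 is on the higher side; on the right Sqle, Fdft1, Cyp51, Mvd and Elovl6 are lower in adult HSC.

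Fatty acid synthesis genes took less part in the E17.5 to E14.5 difference. Of the 7, Scd1 and Elovl6 were at least 2-fold lower at E17.5, Me1 was at least 2-fold higher, and the group's median difference was -0.41. Fasn, the fatty acid synthase, stood at -0.98, -1.15, -1.43, -1.70 and -1.63 over the stages, -2.09 in adult HSC, -1.68 in MEF and -1.18 in MSC. Acaca, the acetyl-CoA carboxylase that makes malonyl-CoA, stood at 2.76, 2.66, 2.25, 1.84 and 2.10, with 2.68 in adult HSC, 2.53 in MEF and 2.94 in MSC. Over all 8 arrays Fasn spanned 1.11 on the log2 scale and Acaca a like amount, against 6.81 for Sqle and 2.91 for Hmgcs1. The 3 Acaca probes differed in sign for E17.5 minus E14.5, from -1.17 to 0.24.

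Acly, ATP citrate lyase, which supplies cytosolic acetyl-CoA to both pathways, stayed between 3.12 at E17.5 and 4.24 at E11.5. Its 2 probes gave -0.98 and -1.55 for E17.5 minus E14.5, so only the dimmer one passed 2-fold. Scd1 and Scd2 encode stearoyl-CoA desaturases, which introduce the double bond of oleate. Scd1 stood at -2.72, -1.99, -0.78, -3.46 and -3.48 over the stages, at -2.61 in adult HSC, and at 0.32 in MEF and 0.47 in MSC. Scd2 stood at 4.92, 5.03, 4.86, 4.59 and 3.69, at 3.30 in adult HSC, and at 5.15 in MEF and 4.54 in MSC. Among the liver-derived arrays, Scd1 was highest at E14.5, as were the cholesterol genes other than Sqle, Cyp51 and Hsd17b7, which were highest at E11.5. The E17.5 and E14.5 levels of Scd2 differed by only -0.27. Elovl6, which elongates palmitate, stood at 1.51, 1.02, 0.84, -0.61 and -0.29, at -2.61 in adult HSC, and at 1.37 in MEF and 1.19 in MSC.

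Of the 28 members, 26 had a negative slope over the stages, as did 8505 of 15538 genes. Me1, cytosolic malic enzyme, a source of NADPH for fatty acid synthesis, was higher at later stages. Its levels were -0.93, -0.20, 0.71, 1.78 and 2.32 from E11.5 to P1, 3.08 in adult HSC, 2.86 in MEF and 2.63 in MSC. It was higher at each successive stage and 9.49-fold higher at P1 than at E11.5, and its 3 probes gave differences of 2.56 to 3.25 there. Of the 28 members, Me1 was the only one higher at every step (3.23% of the 12689 genes above background on all 5 arrays), and none was lower at every step (7.95%).

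A limma slope over the order of the 5 stages called no member and none of 15538 genes after Benjamini-Hochberg adjustment (0% higher, 0% lower), with 4359 genes at an unadjusted p under 0.05. The slope of Me1 was 0.85 ± 0.07 per stage (SE, 5 arrays), with a limma adjusted p of 0.059, the lowest value in the fit, which it shared with at least 1 stellate marker. Of the 28 slopes, 26 were negative, as were 8505 of 15538 over all genes, with medians of -0.36 and -0.03. On the fetal arrays alone, which shared a slide, 24 of the 28 were negative, with medians of -0.33 and -0.05. In the fit of all 5 stages, 10 negative slopes of members and that of Me1 stood at an unadjusted limma p under 0.05. Over all genes, 2427 negative and 1932 positive slopes did. The threshold for Me1 depended on the setting: quantile normalization gave an adjusted p of 0.0475, the normexp correction without uneven spots 0.0201, the genes above background on every stage 0.035, and a trended robust prior 0.0242.

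**Figure D3:**
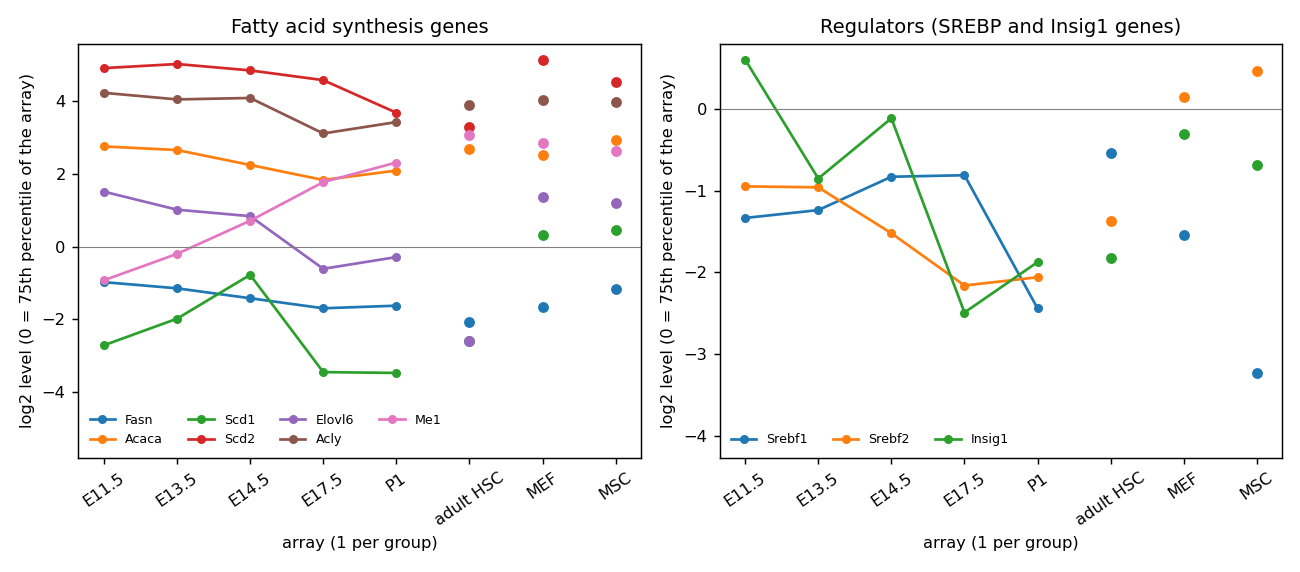
Log2 level (y axis, 0 is the 75th percentile of the array) of the 7 fatty acid synthesis genes (left) and the 3 regulators (right) on each array (x axis); each point is 1 array, lines join the 5 stages, and Scd1 and Elovl6 coincide in adult HSC. Me1 alone is higher at every stage than at the one before, and Insig1 and Scd1 are low at E17.5 and P1.

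The regulators did not share a common pattern. Insig1, the reticulum protein that retains SREBP and is itself a classical SREBP target, stood at 0.60, -0.85, -0.12, -2.49 and -1.87 over the stages, at -1.83 in adult HSC, and at -0.30 in MEF and -0.68 in MSC. It was 5.18-fold lower at E17.5 than at E14.5, as the cholesterol genes were. Srebf2 stood at -0.95, -0.96, -1.52, -2.16 and -2.06, at -1.38 in adult HSC, and at 0.15 in MEF and 0.46 in MSC. Its E17.5 level differed from that at E14.5 by -0.64, less than 2-fold. On the brighter probe, which was used, Srebf2 was already lower at E14.5 than at E13.5, when all cholesterol genes were higher. The dimmer Srebf2 probe went the other way there, with -4.83 at E13.5 and -4.74 at E14.5. Srebf1 stood at -1.33, -1.24, -0.83, -0.81 and -2.44, at -0.54 in adult HSC, and at -1.54 in MEF and -3.23 in MSC. The E17.5 and E14.5 arrays differed by 0.02 for Srebf1, and its lowest liver array was P1. These probes measure mRNA, and the processing of SREBP proteins was not measured.

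From E11.5 to P1 as a whole, 17 of the 28 members were at least 2-fold lower at P1 (14.9% of 14942 genes), and Me1 alone was at least 2-fold higher (19.3%). The 17 comprised 12 cholesterol genes, Scd2, Elovl6 and all 3 regulators. Under either normexp correction the count was 12, without Pmvk, Lss, Dhcr7, Srebf1 and Srebf2. The mean of all probes kept 17 but held Mvk and Acly in place of Fdft1 and Srebf2. Insig1 differed most, by -2.47, followed by Cyp51 at -2.27 and Sqle at -2.25. Ebp was the only cholesterol gene higher at P1, by 0.30.

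Between adult HSC and P1 p75NTR cells, the shares of members that differed by 2-fold were no higher than those of all genes. At least 2-fold lower in adult HSC were 5 members (23.8% of 14948 genes), Sqle by 18.3-fold, Fdft1 at -4.41 in adult HSC against -1.41 at P1, Elovl6 by 4.98-fold, Cyp51 by 4.69-fold and Mvd by 3.14-fold. At least 2-fold higher in adult HSC were 3 members (14.4%), Srebf1 by 3.73-fold, Sc5d by 2.46-fold and Ebp by 2.09-fold. The other Fdft1 probe, above background in adult HSC but not at P1, gave 1.46 for this pair. With the mean of all probes, 4 members were at least 2-fold lower. The module's median difference was -0.15, near that of all genes at -0.06. With the median in place of the 75th percentile as the scale, the median of all genes moved to 0.73, that of the members to 0.63, and 10 members were then 2-fold higher. In adult HSC, 13 of the 28 members had their lowest level of the 8 arrays, against 23.2% of all genes.

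The liver-derived cells were then set against MEF and MSC by limma, 6 arrays against 2. None of the 28 members passed, while 140 of 16521 genes were higher (0.847%) and 120 lower (0.726%). At an unadjusted p under 0.05 stood 3240 genes and 3 members, all lower in the liver-derived cells. Srebf2 averaged -1.50 in the liver-derived cells and 0.30 in MEF and MSC, a difference of -1.81 ± 0.40 (SE, limma adjusted p = 0.0806). For Scd1 the means were -2.51 and 0.40, a difference of -2.90 ± 0.70 (limma adjusted p = 0.098), and for the sterol dehydrogenase gene Nsdhl -2.16 and -0.54 (limma adjusted p = 0.215). A member that missed the threshold with so few arrays is not shown to be alike in both groups. Without the E14.5 array, Scd1 passed with an adjusted p of 0.0496, and with the normexp correction without uneven spots it passed with 0.0446.

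Of the 28 differences, 25 were negative, as were 8088 of 16521 over all genes. The median was -1.23 over the members and 0.02 over all genes. Every liver-derived array lay below both MEF and MSC for 4 members, Fdft1, Sqle, Scd1 and Srebf2 (10.4% of all genes), and above both for none (12.8%). On the dimmer Fdft1 probe, adult HSC was at -4.97, above MEF at -6.33 and MSC at -5.74. Within the second slide, P1 and adult HSC lay below both MEF and MSC for 22 of 28 members (26.1%), 16 of them cholesterol genes, and above for none (24.4%). A limma fit on those 4 arrays called no gene.

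Fdft1, Sqle and Hsd17b7 were the cholesterol genes whose E14.5 level lay below both MEF and MSC. Over the 8 arrays, 9 of the 18 had their highest level at E14.5 (7.73% of all genes), 6 in MEF (10.8%) and 3 in MSC (24.7%). The median deviation from each gene's mean was 0.45, 0.40, 1.34, -1.22 and -0.93 over the stages, -1.37 in adult HSC, 1.18 in MEF and 0.68 in MSC.

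MEF and MSC differed from each other in few members. At least 2-fold higher in MEF were 4 (24% of 15183 genes), Tm7sf2 by 3.45-fold, Srebf1 by 3.22-fold, Hmgcs1 by 2.73-fold and Cyp51 by 2.19-fold. Nsdhl alone was at least 2-fold lower in MEF, by 2.01-fold, as were 2196 of the 15183 genes, and its other probe gave -0.46. The median difference of the members was 0.26, and it turned to -0.36 under median scaling, which moved the median of all genes to -0.66.

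Markers of other cells also differed between the arrays. The summed linear level of 12 hepatocyte markers was 9.88, 360, 1117, 130 and 66.1 from E11.5 to P1, 53.6 in adult HSC, 1.61 in MEF and 1.13 in MSC. The adult HSC sum was mostly Trf, at 5.65 there against a median of -3.77 over the 12 markers. Of 11 markers compared, 10 were lower in adult HSC than at P1, with a median difference of -4.27. The plasma protein genes Afp, Apoa2 and Trf were the brightest of the list. Of the 12, 11 were above background at E13.5 to P1, with Cps1 above background on no array. All 11 were at least 2-fold lower at E17.5 than at E14.5, as the cholesterol genes were. The summed hepatocyte level was 130 at E17.5 and 9.88 at E11.5. For the same pair, 17 of the 28 module members were at least 2-fold lower at E17.5 (14.6% of all genes). In MEF and MSC, 3 of the 12 hepatocyte markers were above background. The part of hepatocyte RNA in the module's levels, at E14.5 or any other stage, was not tested.

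The 7 erythroid markers, led by Hba-a1, Hbb-bt and Epor, summed to 214 at E17.5 and 53.2 at E14.5, although the sort removed Ter119-positive cells. Of 6 fat cell markers, Adipoq, Cidec, Lep and Cfd were above background on no array. Fabp4, which was above background on all 8, stood at -1.46, -3.16, -1.88, -0.13 and 0.95 over the stages, -3.13 in adult HSC, -1.71 in MEF and -2.11 in MSC. Plin1 was above background at E13.5 and P1 and in adult HSC, at -5.46, -3.82 and -5.16. The 10 proliferation genes summed to 167, 115, 141, 80.9 and 41.7 over the stages, 12.04 in adult HSC, 99.2 in MEF and 197 in MSC. All 10 were lower at E17.5 than at E14.5, by a median of -0.87, and their part in the module's levels was not tested.

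The 7 endothelial markers, led by Plvap, Kdr and Stab2, summed to 16.2, 14.7, 30.0, 39.6 and 15.2 over the stages, 213 in adult HSC, 1.53 in MEF and 1.27 in MSC. The adult HSC sum was mostly Plvap, at 7.72 there against a median of -3.97 over the 7 markers. Of the 7, 5 were lower in adult HSC than at P1, with a median difference of -0.49. The Kdr probe used was at 0.42 in MEF and 0.15 in MSC, where another Kdr probe was at -2.68 and -3.87. At P1 against E11.5, 6 of the 7 were lower, with a median of -1.40, and at E17.5 against E11.5 6 of the 7 were lower, with a median of -1.29. At E17.5 against E14.5, 6 of the 7 were higher, with a median of 0.42. Of 6 leukocyte markers, 5 were above background in MEF, at a median level of -0.88, and 3 in MSC, at -6.44. On the liver-derived arrays 2 to 4 of them were, at median levels from -6.30 to -3.71. The part of endothelial and leukocyte RNA in the module's levels was not tested.

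**Figure D4:**
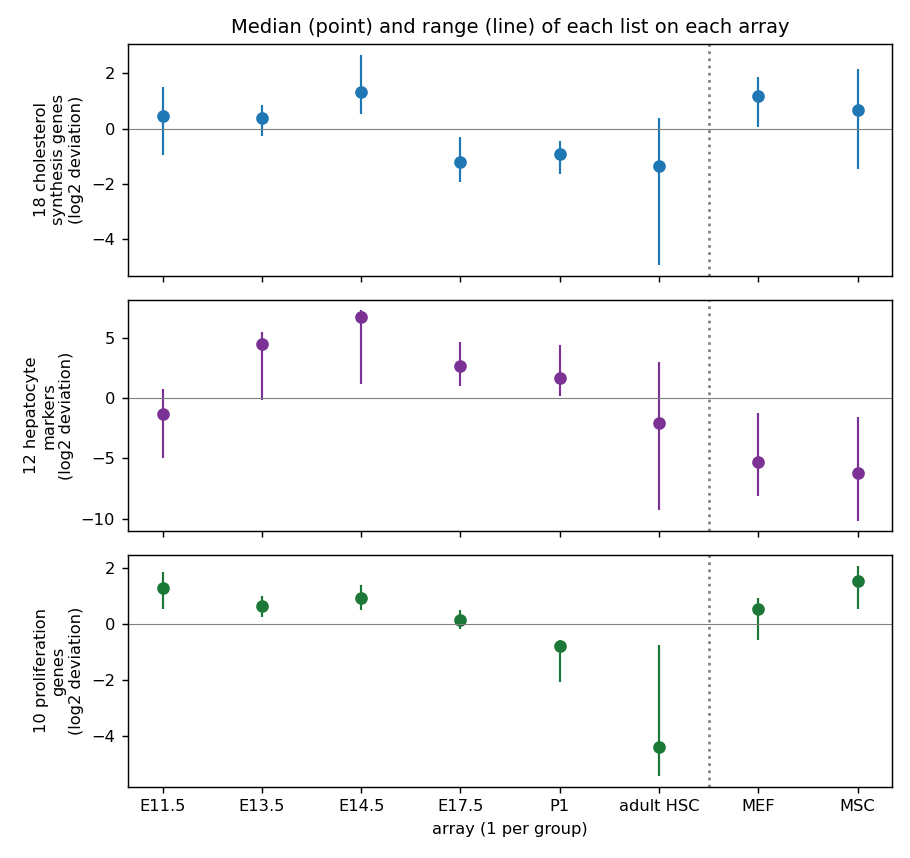
Log2 deviation from each gene's mean over the 8 arrays (y axis) for 18 cholesterol synthesis genes, 12 hepatocyte markers and 10 proliferation genes on each array (x axis); points are medians and lines run from the lowest to the highest gene. From E11.5 to P1 the hepatocyte median is -1.30, 4.47, 6.75, 2.63 and 1.70. That of the cholesterol genes is 0.45, 0.40, 1.34, -1.22 and -0.93. In the same order, these medians are -2.09 and -1.37 in adult HSC, -5.33 and 1.18 in MEF, and -6.25 and 0.68 in MSC.

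Other genes of the pathway followed the module in part. None of 16 further sterol and fatty acid synthesis genes, 11 genes of SREBP processing and sterol uptake, or 12 measured genes of LXR signaling, sterol efflux and oxysterols was called by either limma fit. Of 15 further synthesis genes compared between E17.5 and E14.5, 8 were at least 2-fold lower at E17.5 (8.75% of all genes) and none higher (8.82%). Of the 11 processing and uptake genes, 3 were at least 2-fold lower at E17.5, among them Stard4, and Lpin1 was at least 2-fold higher, against the same shares of all genes.

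Stard4, a cytosolic sterol carrier, stood at 0.10, 0.41, 0.69, -1.49 and -1.47 over the stages, with -3.73 in adult HSC, 0.41 in MEF and 0.32 in MSC. It was lower at E17.5 than at E14.5, as the enzymes were, and its adult HSC value was the lowest of its 8 arrays, as for Sqle and Fdft1. The E17.5 to E14.5 median of the 11 processing and uptake genes was -0.33.

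Between E17.5 and E14.5, the 11 genes compared of LXR signaling, sterol efflux and oxysterols differed by a median of -0.32. Of these, 6 were lower at E17.5 and 5 higher. For P1 against E11.5 and adult HSC against P1, more genes of this list were higher than lower. Abcg1, a sterol exporter and LXR target, stood at -2.64, -2.69, -2.83, -0.58 and -0.54 over the stages, 3.22 in adult HSC, -1.93 in MEF and -8.41 in MSC, where it was not well above background. Apoe, the apolipoprotein that accepts exported sterol, stood at 3.79, 5.03, 6.77, 6.34 and 6.47, at 7.82 in adult HSC, 3.43 in MEF and -2.21 in MSC. Of the 12 export and oxysterol genes compared between P1 and E11.5, 7 were at least 2-fold higher at P1 (19.3% of all genes), and Abcg5 and Soat1 were at least 2-fold lower (14.9%). Of the 12 compared between adult HSC and P1, 6 were at least 2-fold higher in adult HSC (14.4%), and Abcg5, Ch25h, Soat1 and Cyp7b1 were at least 2-fold lower (23.8%). Cyp7b1, an oxysterol hydroxylase, was at -7.77 in adult HSC, not well above background, and -0.08 at P1.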

How the data were processed

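Each array was scanned and quantified with Agilent Feature Extraction 11.5.1.1, per the file headers. The signal intensity used is the deposited processed signal, background-subtracted by that software. Per the series' design text, the authors scaled to the 75th percentile and took log2 values; their deposited log2 table was used as an alternative. From the scanner intensity, log2 levels were computed here relative to each array's 75th percentile, without control and outlier spots. Spots of a probe were averaged, and each gene took its brightest probe. Genes well above background on at least 1 compared array were tested with limma 3.58.1 (R 4.3.3), with Benjamini-Hochberg adjustment and a threshold of 0.05. Comparisons of single arrays are counts of genes differing at least 2-fold, with no test. Residual spread comes from arrays of different groups, so p-values measure the spread between these arrays only, and the number of arrays limits precision.

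The scanner files hold median, not mean, spot brightness, so the normexp alternative (offset 50) used the median. On the E13.5 array, 11 spots with a local background far above their own signal spoiled that fit: the corrected median was 1262 there, against 72.4 to 90.7 on the other arrays. A second normexp correction without spots marked for uneven background, which gave a median of 82.8 on E13.5, was added after the data were seen. The members, the other lists and the motifs were chosen with earlier results of these data known. The text names all 28 members, up to 4 genes of each other list with the widest range or called by a fit, and up to 3 of each marker list. Ngfr, Cps1, Abcg5, Soat1, Ch25h and the fat cell markers fall outside that rule and were named after their values were seen. Some further genes of the lists are counted but not named here. The fits were tested on simulated data. Promoter windows are RefSeq's (GRCm38.p6).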

Additional observations from a re-analysis of the deposited data

How the results depend on the processing

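Limits. There is 1 array per group, no member passed either fit, and the count of all genes called was unstable. No paired analysis was possible because each group has 1 array and the labels give no shared replicate numbers. Correlations between members over the 8 arrays are not given, since the arrays fall into separate clusters. The E17.5 against E14.5 count of lower members was 21 under each of the 9 processing alternatives, with Acly in place of Fdft1 under the mean of all probes. Not all 9 could change it. The other filters and a floor under dim values left the members as they were, since all were above background on every array. The authors' table was scaled to the same percentile. With E13.5 in place of E14.5 the count was 18, and with E11.5 it was 17, when Ebp turned to 0.51. For liver-derived cells against MEF and MSC, the main count of 260 genes was 52 with normexp on all spots, 160 with genes above background on every array, 72 with slide as a block, 0 within slide 2, 524 with adult HSC left out, so that p75NTR cells alone made up the liver side, and 86 to 1283 leaving out 1 array each (86 when E17.5 was left out, 90 for E14.5, 95 for E13.5, 170 for P1, 1283 for MEF). Median scaling moved the median difference of all genes there to -0.35, and normexp without uneven spots to 0.22, against 0.02. Members called lower there numbered 0 to 1 leaving out arrays, and 1 with normexp without uneven spots, Scd1 each time. The slope's count of 0 became 107 with quantile normalization, 657 with genes above background on every array, 1156 with a trended robust prior and 768 with normexp without uneven spots, each calling 1 member, Me1; leaving out arrays gave 0. Adult HSC against P1 gave 10 higher members with median scaling (3 as reported). Its lower members numbered 4 with either normexp, median scaling or the mean of probes, and 6 with quantile scaling (5 as reported). MEF against MSC gave 2 higher with median and 7 with quantile scaling (4 as reported), and 5 lower with median scaling, 0 with either normexp and 0 with the mean of probes (1 as reported). E14.5 against E13.5 gave 5 higher with normexp without uneven spots (9 as reported). The normexp fit that failed on E13.5 gave 1 lower there and turned Acaca to 1.08, Acat2 to -0.37, Scd1 to -0.77 and Scd2 to 1.51; Cyp51, Elovl6, Hsd17b7, Insig1, Nsdhl and Srebf1, under 2-fold as reported, also changed sign there, and none did in the repeated fit. Of 1036 member values in the fits, 20 changed sign, and none of these was called.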

Other observations

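Some lipid genes outside the module had wide ranges. Mlxipl, the carbohydrate-responsive factor ChREBP, stood at -4.13, -0.82, 1.42, -3.57 and -2.46 from E11.5 to P1, and was not above background in adult HSC, MEF and MSC. Its level was higher at E14.5 than at E17.5 and E13.5, as were those of the hepatocyte markers, whose part in it was not tested. Abca1, a cholesterol exporter, was at 1.23 in adult HSC and 0.07 at P1, at -0.12 in MEF, and not well above background in MSC.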
